A study of Mus musculus with 3 samples.

Results

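The large olfactory receptor gene clusters of mouse chromosomes 2, 7 and 9 were described by the accessible regions that ATAC-seq found in them in the dentate gyrus. ATAC-seq lets the transposase Tn5 cut open DNA, and a peak marks a stretch where cuts pile up. The clusters were set as 3 windows of the mouse build mm9: chr2:85000000-90300000, chr7:109500000-116000000 and chr9:37400000-40300000. Any peak touching a window was a member, and the contrast was an equal length on each side of each window. Peaks of different animals that overlapped by at least 1 bp were joined into a region. The windows span 14.7 Mb and held 150 of the 84529 joined regions. Their sides span 29.4 Mb and held 955.

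The 3 libraries came from the microdissected dentate gyrus, a hippocampal region with granule neurons, of 3 individual adult C57BL/6 mice, 8 weeks old. All carry the label E24, which is not explained, and make up 1 group numbered replicate 1, 2 and 3. The series concerns changes of accessibility upon neuronal activation, and no other condition was analysed here. The lists held 62912, 68699 and 48769 peaks, of which 109, 117 and 77 lay in the windows, or 0.173%, 0.170% and 0.158% of each list. Read depth is unknown, so a place without a peak is not shown to be closed.

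Olfactory receptors are G protein-coupled receptors that bind odorants, and they form the largest gene family of the mouse. They lie in tandem arrays on many chromosomes. A mature olfactory sensory neuron of the nose expresses a single receptor allele, and the remaining receptor genes are packed in heterochromatin. In most other tissues, neurons of the brain included, the arrays are largely silent.

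The gene content is given here by name and order only, from the RefSeq table of another build, GRCm38.p6, whose positions were not set against the mm9 windows. That the windows hold the receptor arrays was therefore taken from how they were chosen and was not checked against mm9 genes. The table lists 1110 protein-coding receptor genes, with 287 on chromosome 2, 239 on chromosome 7 and 130 on chromosome 9. Receptor genes were counted as 1 run while no more than 10 other coding genes lay between neighbours. The largest run of chromosome 2 has 222 receptor genes, from Olfr987 to Olfr1274, with only 3 other coding genes among them, Fads2b, Pramel7 and Pramel6. The largest run of chromosome 9 has 95, from Olfr160 to Olfr986, and also 3 others, Vwa5a, AW551984 and Tmem225.

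Chromosome 7 differs in its gene order. Its largest run, from Olfr543 to Olfr649, has 91 receptor genes and 13 other coding genes. Among those are the 5 beta-globin genes Hbb-bt, Hbb-bs, Hbb-bh2, Hbb-bh1 and Hbb-y, which encode chains of haemoglobin and are expressed in red cell precursors. A block of 11 other coding genes follows, 10 of them Trim genes, and then a second run of 35 receptor genes from Olfr651 to Olfr692. Next come 21 other coding genes, among them Ilk (integrin-linked kinase), Taf10 (a subunit of the general transcription factor TFIID), Tpp1 (a lysosomal protease) and Apbb1 (an adaptor that binds the amyloid precursor protein). The last run of the stretch, from Olfr693 to Olfr519, has 67 receptor genes. Other coding genes also lie within these later runs, 3 in that of 35 receptor genes and 7 in that of 67.

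The DNA in front of receptor genes shows what these arrays look like in sequence. The 250 bases before the 5′-most RefSeq start were read for 345 of the 408 receptor genes in the largest runs of the 3 chromosomes. The median receptor gene had 1 CpG in these bases and 32.4% G or C, against 6 CpG and 52.0% over all 27025 genes of the table. No CpG at all was present for 153 receptor genes (44.3%), against 8.27% of all genes. For 240 of the 345 (69.6%) the RefSeq start was an ATG, against 6.75% of all genes, so that for many of these the bases precede a coding start rather than a known start of transcription. The 105 receptor genes without an ATG there also had a median of 1 CpG, and 33.2% G or C.

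For each chromosome the sequence is shown of the receptor gene nearest to its run's median CpG and GC values, among those whose start was not an ATG, and of the coding gene that follows the run. Ptprj encodes a receptor-type tyrosine phosphatase, Trim6 an E3 ubiquitin ligase and Zfp202 a zinc-finger protein. They are RefSeq sequences, 5′ to 3′ on the gene's strand, with every CpG in capitals, and their positions are on GRCm38.p6, not on the scale of the mm9 windows.
Olfr1205, GRCm38.p6 chr2:88829507-88829756, plus strand: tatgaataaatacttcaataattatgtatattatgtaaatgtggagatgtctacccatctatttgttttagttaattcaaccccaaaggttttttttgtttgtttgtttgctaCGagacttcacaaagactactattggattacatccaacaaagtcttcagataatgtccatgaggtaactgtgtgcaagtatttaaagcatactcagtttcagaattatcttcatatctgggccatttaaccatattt
Ptprj, GRCm38.p6 chr2:90580596-90580845, minus strand: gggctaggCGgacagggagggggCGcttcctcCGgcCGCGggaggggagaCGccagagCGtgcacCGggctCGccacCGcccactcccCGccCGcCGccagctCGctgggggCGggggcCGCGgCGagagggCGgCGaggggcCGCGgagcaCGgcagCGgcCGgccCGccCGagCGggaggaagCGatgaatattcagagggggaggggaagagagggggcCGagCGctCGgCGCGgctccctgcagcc
Olfr623, GRCm38.p6 chr7:103661319-103661568, minus strand: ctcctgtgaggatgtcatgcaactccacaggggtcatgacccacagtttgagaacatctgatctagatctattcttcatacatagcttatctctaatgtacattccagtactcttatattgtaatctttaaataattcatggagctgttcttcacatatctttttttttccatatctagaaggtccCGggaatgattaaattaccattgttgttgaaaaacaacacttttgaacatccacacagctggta
Trim6, GRCm38.p6 chr7:104218545-104218794, plus strand: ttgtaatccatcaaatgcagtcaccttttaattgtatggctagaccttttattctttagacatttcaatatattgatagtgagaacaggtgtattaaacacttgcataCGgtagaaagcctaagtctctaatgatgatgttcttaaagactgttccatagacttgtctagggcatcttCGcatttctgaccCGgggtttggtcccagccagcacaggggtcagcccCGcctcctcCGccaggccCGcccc
Olfr902, GRCm38.p6 chr9:38448542-38448791, plus strand: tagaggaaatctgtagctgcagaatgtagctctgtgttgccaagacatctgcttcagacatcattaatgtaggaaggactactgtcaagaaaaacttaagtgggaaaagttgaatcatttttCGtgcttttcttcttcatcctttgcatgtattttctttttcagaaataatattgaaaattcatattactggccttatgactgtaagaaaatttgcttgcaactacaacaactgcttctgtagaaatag
Zfp202, GRCm38.p6 chr9:40192066-40192315, plus strand: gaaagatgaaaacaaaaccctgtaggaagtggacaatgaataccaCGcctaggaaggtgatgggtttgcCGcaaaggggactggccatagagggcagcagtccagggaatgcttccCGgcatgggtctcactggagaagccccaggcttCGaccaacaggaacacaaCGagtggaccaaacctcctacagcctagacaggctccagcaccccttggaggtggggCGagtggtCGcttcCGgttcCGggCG

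A single CpG stands in the 250 bases of each of the 3 receptor genes, Olfr1205, Olfr623 and Olfr902. Ptprj has 34 there, Zfp202 has 10 and Trim6 has 6, so the last lies at the median of all genes. Of the coding genes before the runs, not shown, Lrrc55 on chromosome 2 has 3 and Rrm1 on chromosome 7 has 7. G and C make up 30.8% of the bases for Olfr1205, 36.4% for Olfr623 and 34.4% for Olfr902, against 79.2% for Ptprj, 58.0% for Zfp202 and 45.6% for Trim6.

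A pair of motifs tied in the literature to receptor gene promoters was searched on both strands of the same 250 bases. The homeodomain motif TAATTA was present for 67 of the 345 receptor genes (19.4%), against 4.91% of all genes. The share was 24.2% in the chromosome 2 run, 11.3% in the chromosome 7 run and 16.5% in the chromosome 9 run. The chromosome 2 run also had the lowest median GC content, 30.8%, and base composition was not matched in this count. The palindromic consensus of the O/E (EBF) site, allowing no mismatch, was found in 0 of the 345 and in 0.773% of all genes. Among the 105 receptor genes whose start was not an ATG, TAATTA was present for 18 (17.1%) and the O/E consensus for 0. Base composition was not matched for the O/E site either. With so low a share over all genes, the 0 does not show that such sites are absent from receptor promoters.

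Accessible regions were sparse in the receptor windows. In the windows together, the 3 animals had 7.41, 7.96 and 5.24 peaks per Mb, in the order of their numbers. On the sides the values were 22.6, 27.0 and 16.8 peaks per Mb. The inside and outside values did not overlap between animals. The ratio of inside to outside was 0.329, 0.295 and 0.312, with a mean of 0.312 ± 0.017 (SD, n = 3), although the number of peaks in the lists differed between the animals. An exact two-sided sign-flip permutation test over the 3 animals gave p = 0.25, the smallest value that 3 animals allow. Against all autosomes the windows stood at 0.285 ± 0.014 of the mean peak density, and their sides at 0.914 ± 0.063 (SD, n = 3). Peaks covered 0.352% ± 0.129 of the windows' length and 1.26% ± 0.50 of the sides (SD, n = 3).

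**Figure D1:**
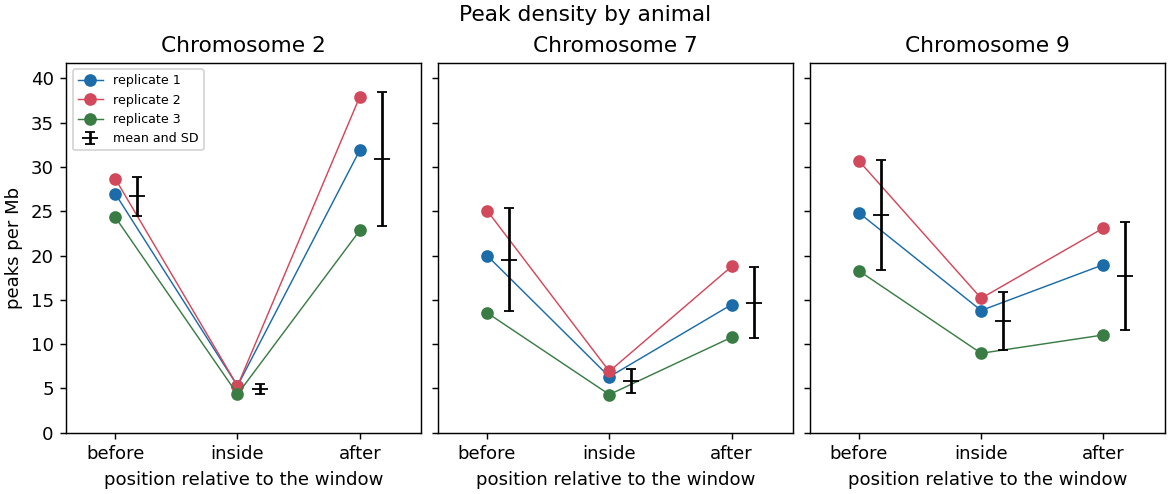
Peaks per Mb (vertical axis) before, inside and after each receptor window, with 1 line per animal and the mean and SD of the 3 animals in black. Each animal is lowest inside on each chromosome; the dip is deepest on chromosome 2, with a mean of 4.97 inside, and shallowest on chromosome 9, with 12.6.

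The 3 clusters differed in how empty they were, and the order of chromosomes 9 and 7 depended on the window ends, as given below. The chromosome 2 window held 28, 28 and 23 peaks in replicates 1, 2 and 3, which is 4.97 ± 0.54 per Mb, against 28.8 ± 4.9 on its sides (SD, n = 3). The chromosome 7 window held 41, 45 and 28 peaks, which is 5.85 ± 1.37 per Mb, against 17.1 ± 4.9. The chromosome 9 window held 40, 44 and 26 peaks, which is 12.6 ± 3.3 per Mb, against 21.1 ± 6.2. The ratios were 0.174 ± 0.014, 0.345 ± 0.026 and 0.602 ± 0.034 (SD, n = 3), in this order in each animal. The ratio of chromosome 7 was 1.99 ± 0.06 times that of chromosome 2, and that of chromosome 9 was 1.74 ± 0.04 times that of chromosome 7, each above 1 in 3 of 3 animals (exact sign-flip permutation p = 0.25, the smallest possible).

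The side that served as contrast mattered most for chromosome 9. Of the 2.9 Mb before its window, 1.12 Mb were a single stretch without a peak in any animal, from 35412455 to 36533719. This stretch lowers the outside density of chromosome 9, and the ratio without it was not computed. Before that window the animals had 24.8, 30.7 and 18.3 peaks per Mb, and after it 19, 23.1 and 11.0, against 13.8, 15.2 and 9.0 inside. Inside and outside values of different animals therefore overlap on chromosome 9, while the inside value was the lowest within each animal. On chromosomes 2 and 7 the highest inside value, 5.28 and 6.92 peaks per Mb, lay below the lowest value of either side, 22.8 and 10.8.

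Set against the autosomes, the chromosome 2 and 7 windows were among the emptiest. Of 445 consecutive autosomal tiles of 5.3 Mb, 3 (0.674%) held no more than the 39 joined regions of the chromosome 2 window, and the median tile held 180. Of 361 tiles of 6.5 Mb, 2 (0.554%) held no more than the 55 regions of the chromosome 7 window, with a median of 224. Of 821 tiles of 2.9 Mb, 105 (12.8%) held no more than the 56 regions of the chromosome 9 window, with a median of 99. The chromosome 9 window is thus not rare among tiles of its length.

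**Figure D2:**
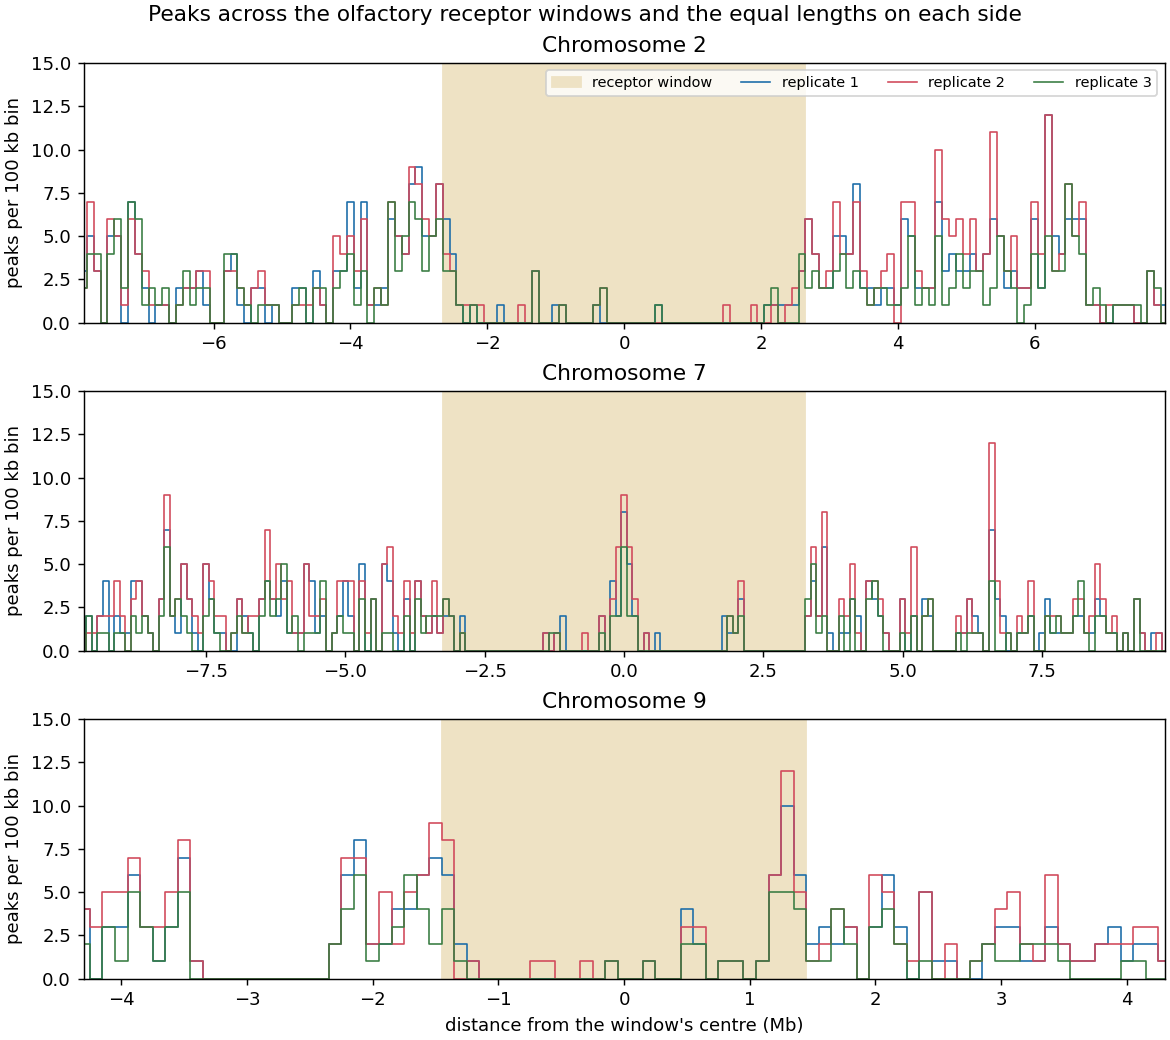
Peaks per 100 kb bin (vertical axis) for the 3 animals (coloured steps) against the distance in Mb from the centre of each receptor window, which is shaded; the sides are as long as the window. Inside, peaks stand in narrow groups. The fullest are at the start of the chromosome 2 window, near the centre of that of chromosome 7 and at the end of that of chromosome 9. Smaller ones include the end of the chromosome 2 window and the start of the chromosome 9 window.

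The members were not spread evenly within the windows. When 0.5 Mb was taken off both ends of each window, the remaining cores held 2.25 ± 0.27 peaks per Mb on chromosome 2, 5.82 ± 1.62 on chromosome 7 and 5.44 ± 1.32 on chromosome 9 (SD, n = 3). The removed ends held 16.7 ± 2.5, 6.0 ± 0.0 and 26.3 ± 7.2 peaks per Mb. The core to side ratio fell to 0.0789 on chromosome 2 and 0.261 on chromosome 9 and was 0.341 on chromosome 7, giving 0.201 for the 3 together. The cores of chromosomes 9 and 7 differed by less than the SD of either, while both were above that of chromosome 2. The window limits are round positions, and which genes lie at their ends was not determined here.

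The fullest 500 kb of each window were described after the data had been looked at. Those of chromosome 7 lay near the middle of the window, at chr7:112500001-113000000. This dense group is 7.69% of the window's length and held 28 of its 55 joined regions (50.9%), 13 of them held by all 3 animals. It had 20, 26 and 14 peaks in the 3 animals, which is 40 ± 12 per Mb, against 3.0 ± 0.6 in the rest of the window (SD, n = 3). A density above the rest follows from choosing the fullest stretch, and the fullest stretches of the sides were not sought. Without its fullest 500 kb, the inside to outside ratio was 0.180 for the chromosome 7 window, 0.119 for that of chromosome 2 and 0.357 for that of chromosome 9. Taking out the fullest part lowers the ratio by construction, and the order was that of the whole windows. With 0.5 Mb taken off both ends instead, chromosome 9 lay below chromosome 7, at 0.261 and 0.341. Peaks of the group also ranked higher, with a median score percentile of 67.6, 57.4 and 82.9 in the 3 lists, against 40, 39.1 and 43.3 in the rest of the window. The GRCm38.p6 gene order of chromosome 7 has, between the runs that end with Olfr692 and start with Olfr693, the 21 other coding genes named in part above. Whether they are the genes of this group was not tested, since the builds differ.

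The fullest 500 kb of the other windows lay at an end. On chromosome 2 they were the first of the window and held 13 of 39 joined regions (33.3%), with 12, 10 and 8 peaks in the 3 animals. On chromosome 9 they were the last, chr9:39800001-40300000, and held 29 of 56 (51.8%), with 21, 22 and 13 peaks. Its fullest bin, from 40100001 to 40200000, had 10, 12 and 5 peaks. On chromosome 2 the peaks of this end ranked above the rest of the window in each list, with median percentiles of 42.9, 70.9 and 74.1 against 31.7, 55.5 and 47.5. On chromosome 9 they ranked below it, at 42.5, 41.2 and 39.3 against 51.7, 42.5 and 54.4.

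Between these groups the windows were largely without peaks. Of the 147 bins of 100 kb inside, 47 (32.0%) held a peak of replicate 1, 48 (32.7%) of replicate 2 and 38 (25.9%) of replicate 3. Over all bins of chromosomes 1 to 19 the shares were 80.3%, 81.1% and 75.0% for replicates 1, 2 and 3, and on the sides they were 78.6%, 82.7% and 71.4%. The share of empty bins was 69.8% ± 3.7 inside and 22.4% ± 5.7 outside, a difference of 47.4 ± 2.3 percentage points (SD, n = 3; exact sign-flip permutation p = 0.25, the smallest possible). No animal had a peak in 89 of the 147 inside bins (60.5%), against 42 of the 294 outside (14.3%). By window these bins were 31 of 53 on chromosome 2 (58.5%), 45 of 65 on chromosome 7 (69.2%) and 13 of 29 on chromosome 9 (44.8%). On the sides they were 8 of 106 (7.55%), 22 of 130 (16.9%) and 12 of 58 (20.7%), in the same order.

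The longest stretches without a peak in any animal lay on chromosome 7. The first ran from 109836144 to 111322462 (1.49 Mb), the 15th longest of 81471 such stretches on the autosomes. The next ran from 114893192 to 116063753 (1.17 Mb), past the end of the window, and another, added once its length was seen, from 113357671 to 114513989 (1.16 Mb). On chromosome 2 the longest ran from 88196878 to 89110649 (914 kb) and from 87366790 to 88196476 (830 kb), separated by a single region. On chromosome 9 they were shorter, from 37641343 to 38156944 (516 kb) and from 38223215 to 38525718 (303 kb). These stretches were listed from the joined regions, and assembly gaps and repeats in them were not examined.

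Stretches over 500 kb numbered 6 of 151 inside, 1 of 952 outside, although the sides were the longer, and 92 of 81471 over the autosomes. They summed to 6.07 Mb inside. The 1 outside, from 35412455 to 36533719 on chromosome 9 and likewise added, was 1.12 Mb long, so a stretch of this length was not confined to the windows. Stretches over 200 kb made up 72.2% of the summed stretch length inside, 12.1% outside and 14.1% over the autosomes. The share was alike in the 3 windows, at 71.2% on chromosome 2, 72.8% on chromosome 7 and 72.5% on chromosome 9. Of all stretches, 35.8% were under 10 kb inside, 37.2% outside and 37.7% over the autosomes. The windows differed in this: the share was 23.1% inside against 43.3% outside on chromosome 2, 27.3% against 28.3% on chromosome 7 and 52.6% against 38.9% on chromosome 9.

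**Figure D3:**
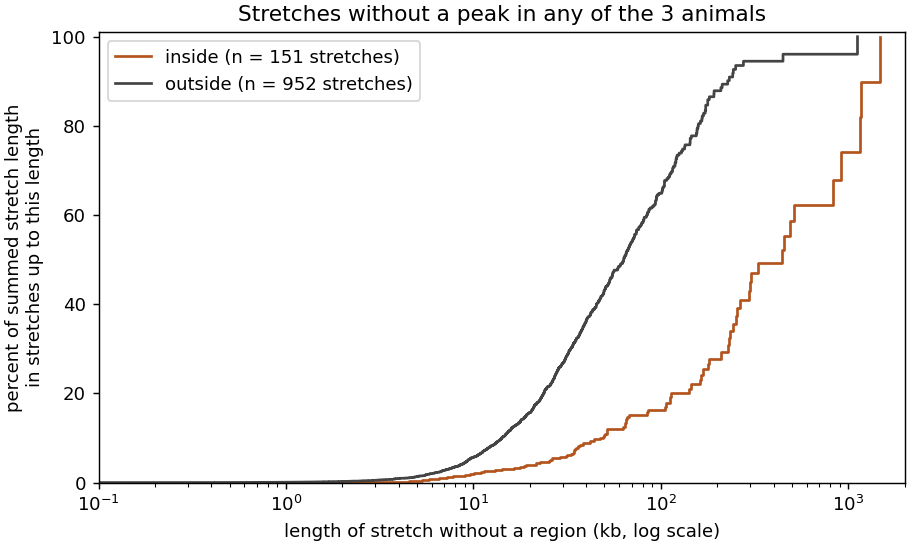
Percent of the summed stretch length (vertical axis) that lies in stretches up to a given length (horizontal axis, kb, log scale), for stretches without a peak in any of the 3 animals, inside and outside the receptor windows. The inside line lies to the right: 72.2% of its length is in stretches over 200 kb, against 12.1% outside.

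The share of regions found in all 3 animals differed by little between the windows and their sides. All 3 animals held 58 of the 150 inside regions (38.7%, exact Clopper-Pearson 95% interval 30.8 to 47.0), 2 animals held 35 (23.3%) and 1 animal held 57 (38.0%). On the sides the shares were 37.4%, 26.5% and 36.1%, and over the whole series 43.6% of joined regions were held by all 3 animals. The interval covers counting error only, and regions are not replicates. The direction of this difference was not stable, since the share held by both remaining lists differed by -4.32 to 6.30 percentage points when each replicate in turn was left out. Asking for 50% overlap of both peaks, a mean of 49.2% of the peaks had a partner in each other list inside, and 41.6% outside, a difference of 7.63 ± 6.11 points (SD, n = 3). These are shares of each list's peaks, not of joined regions, so their level cannot be set against the 38.7% and 37.4%. By window, all 3 animals held 15 of 39 regions on chromosome 2 (38.5%), 24 of 55 on chromosome 7 (43.6%) and 19 of 56 on chromosome 9 (33.9%). The shares on their sides were 41.1%, 35.8% and 31.8%, so chromosome 2 lay below its sides and chromosomes 7 and 9 above.

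Sharing followed score inside the windows. Among peaks in the upper 50% of scores of their list, both other animals had a peak for 40 of 47 inside peaks of replicate 1 (85.1%), 45 of 55 of replicate 2 (81.8%) and 38 of 40 of replicate 3 (95%). The shares were 84.4%, 79.4% and 97.2% on the sides, and 87.6%, 84.3% and 96.9% over the whole lists. In the lower 50% they were 30.6%, 21.0% and 56.8% inside, 23.1%, 12.9% and 51.0% on the sides, and 30.1%, 23.2% and 59.9% over the whole lists. The inside share of low-scoring peaks was above that of the sides in 3 of 3 animals, a difference that was not tested and that rests on 62, 62 and 37 inside peaks. Of the regions held by a single animal, replicate 2 held 31, replicate 1 held 18 and replicate 3 held 8, the order of the lists' lengths. These counts are 20.7%, 12.0% and 5.33% of the inside regions. The matching shares were 20.5%, 8.69% and 6.91% on the sides, and 16.3%, 10.6% and 6.46% over the whole series. The order was the same in each, so it was not particular to the windows.

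Score ranks inside and outside differed by less than the spread between animals. The deposited score has no unit and depends on depth, so only its percentile within a list was used, with 100 the highest. The median inside percentiles of the 3 animals were 45.6, 45.8 and 51.5, and the median outside was 50.5, 47.7 and 50.4. The difference was -1.93 ± 3.04 percentile points (SD, n = 3; exact sign-flip permutation p = 0.5), below 0 in 2 of 3 animals. It turned to 6.10 in the highest-scoring 50% of each list, with percentiles taken anew among the kept peaks and so on another scale. Against the sequence after the windows alone it was 1.86. Peaks of the highest-scoring 10% of a list numbered 9 of 109, 7 of 117 and 8 of 77 inside, which is 8.26%, 5.98% and 10.4%.

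**Figure D4:**
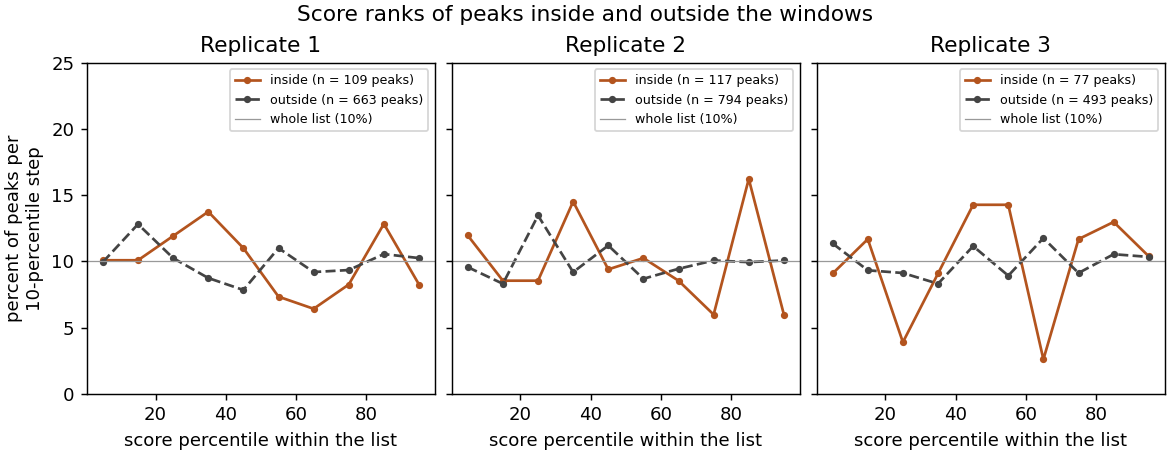
Percent of peaks (vertical axis) in each step of 10 score percentiles (horizontal axis) for peaks inside and outside the receptor windows, with 1 panel per animal and the 10% of the whole list as a grey line. Inside values scatter on both sides of 10% in each animal, and rest on 109, 117 and 77 peaks.

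Peaks inside were slightly narrower. The median widths of the 3 animals were 483, 483 and 328 bp, against 508, 515.5 and 351 bp outside. The difference was -26.8 ± 5.0 bp (SD, n = 3), below 0 in 3 of 3 animals (exact sign-flip permutation p = 0.25, the smallest possible). It rested mostly on chromosome 2, since it was -3.83 bp without that window and its sides. Peaks wider than 1000 bp numbered 10, 9 and 1 inside, which is 9.17%, 7.69% and 1.30% of the inside peaks, against 10.6%, 11.7% and 3.85% outside.

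The strongest members show where accessible chromatin stood in these windows, though not whether it stood at receptor genes. The 2 highest lay in the dense group of chromosome 7. The first, chr7:112548154-112549395, was 1242 bp wide, with scores of 1244, 1611 and 808 in the 3 lists, or percentiles 99.2, 99.6 and 99.0. The second, chr7:112958919-112960061, had percentiles 98.8, 98.9 and 96.6 and lies close to the other end of that group. Of the 5 highest regions of the chromosome 7 window, 4 lay in the group, the others being chr7:112788487-112789795 and chr7:112900329-112901148. The fifth, chr7:109835302-109836143 (percentiles 93.6, 93.2 and 92.2), is the last region before the 1.49 Mb stretch without peaks.

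On chromosome 2 the highest region held by all 3 animals was chr2:85265912-85266653, at percentiles 94.4, 87.3 and 91.1. Of the 5 highest, 4 lay within 266 kb of the window's start, the others being chr2:85124517-85125373, chr2:85053565-85054481 and chr2:85086544-85087116. The exception, chr2:86370783-86371671, lay 1371 kb inside the window and had percentiles 92.6, 72.5 and 89.3. It differed more between animals than the region at the start.

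On chromosome 9 the highest was chr9:37420602-37421772, 20.6 kb from the start of the window, at percentiles 91.3, 89.4 and 90.8. The other 4 of the 5 highest ended 99.4 to 299 kb before its end: chr9:40076290-40077386, chr9:39999589-40000505, chr9:40152378-40154562 and chr9:40199657-40200633. The region starting at 40152378 was 2185 bp wide, the widest region among the 15 named.

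A few regions held by all 3 animals stood alone, with over 100 kb to the nearest region on both sides, and were listed after their values were seen. There were 3 among the 58 inside (5.17%), 5 among the 357 outside (1.40%) and 257 among 35462 on the autosomes (0.725%). The inside share rests on 3 regions and was not separated from the low density of regions there. The region chr2:87233652-87234147 lay 487 kb after its neighbour and 106 kb before the next, and had percentiles 69.5, 83.7 and 50.2. The region chr2:86745876-86746261, its neighbour, was weak and uneven, at 21.5, 3.92 and 51.5. The region chr9:39015614-39016145 lay 254 kb and 301 kb from its neighbours and was alike in the animals, at 66.1, 68.8 and 63.5.

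Regions of a single animal ranked in the lower or middle part of their lists. The highest of each list and window lay between the 11.8th percentile, for chr2:89809393-89809659 in replicate 3, and the 57.3rd, for chr7:112799105-112799613 in replicate 2. The next highest was chr9:37443860-37444352 in replicate 2, at the 56.8th percentile.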

How the data were processed

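The 3 libraries of 1 group were used, each from an individual mouse. Alignment was with Bowtie2 to mm9, per the submitters' processing notes. Peak names in the deposited files are those of MACS. Versions, settings, duplicate handling, the Tn5 shift and the treatment of reads matching several places are not given in the sources used. Receptor genes resemble each other in sequence, so reads from them can match several places. Each deposited line gives a peak's chromosome, start, end and score. The score is the authors' value, has no unit and starts at 50.

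Positions are printed from 1. A peak touching a window counted as inside, and bins were 100 kb. Regions named were the 5 shared regions of each window with the highest mean percentile, the 2 longest empty stretches and the highest region of each list alone. Those said to be chosen later are extra. Stretches belong to where their midpoint lies. The members and lists were chosen with earlier results of these data known. Density, sharing, width, empty-bin and sign-flip steps were tested on simulated lists. Alternatives varied the peaks kept, the contrast, the window ends, the bins, the overlap, the window set and the replicates. No mm9 genome or annotation was used, so no peak was assigned to a gene and no peak sequence was read. Tools were Python 3.11.15, with scipy 1.17.1, matplotlib 3.10.9, numpy 2.4.6 and, for tables, pandas 2.3.3.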

Additional observations from a re-analysis of the deposited data

How the results depend on the processing

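The density ratio was below 1 for the windows together and for each window under every alternative run, in 51 of 51 values with the reported ones. The alternatives that used only 1 side, and those without the fullest 500 kb of a window, were chosen after seeing the data. In what follows, ratios are given for the 3 windows together unless a chromosome is named, and empty bins, sharing, percentile and width are differences inside minus outside. With windows shortened by 0.5 Mb at both ends the ratio was 0.201 (0.0789 on chromosome 2 and 0.261 on chromosome 9), empty bins 54.5 points and width -55.0 bp. With the rest of the same chromosomes as contrast the ratio was 0.361 (0.210, 0.447 and 0.662 on chromosomes 2, 7 and 9), empty bins 39.9 points, sharing -1.96 points and width -9.0 bp. In the highest-scoring 50% the ratio was 0.160 on chromosome 2, empty bins 40.1 points, sharing -2.53 points and percentile 6.10, ranked anew among the kept peaks. With equal numbers of top peaks the ratio was 0.375 on chromosome 7, sharing -0.346 points and width -50.0 bp. Without the chromosome 2 window the ratio was 0.437, empty bins 41.1 points, percentile 0.00527 and width -3.83 bp. Sharing was -2.41 points without the chromosome 7 window. Without the chromosome 9 window the ratio was 0.245, empty bins 53.0 points and width -48.3 bp. Against the length before each window the ratio was 0.303 on chromosome 7 and 0.514 on chromosome 9, sharing -2.66 points, percentile -6.57 and width -33.8 bp. Against the length after, it was 0.329 (0.402 on chromosome 7, 0.732 on chromosome 9), percentile 1.86 and width -17.7 bp. Without the fullest 500 kb of the chromosome 7 window the ratio was 0.260 (0.180 on chromosome 7), empty bins 49.9 points, sharing -0.497 points, percentile -5.37 and width -40.2 bp. Without their own fullest 500 kb, the ratio was 0.119 on chromosome 2 and 0.357 on chromosome 9. Bins of 50 kb gave 37.8 points of empty bins. The causes of these shifts were not tested. Leaving out each replicate gave ratios of 0.304 to 0.321 (0.169 to 0.182, 0.335 to 0.360 and 0.588 to 0.621 on chromosomes 2, 7 and 9), empty bins of 46.1 to 48.3 points, sharing between the remaining 2 lists of -4.32 to 6.30 points, percentiles of -3.44 to -0.405 and widths of -28.8 to -24.0 bp. Of 102 alternative values, 55 kept their direction and moved by no more than the spread between replicates or, for sharing, stayed within its counting interval. A further 37 kept their direction but moved more, and 10 changed sign, all of them differences in sharing or percentile. The sharing value for 50% overlap is a share of peaks, yet it was held to the counting interval of regions. Inside and outside values were paired within each animal wherever a value per animal was computed. Joined regions, and the stretches, tiles and isolated regions drawn from them, were counted over the animals together. Groups could not be paired by replicate number, as a single group was analysed.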
